A study of Mus musculus with 14 samples.

Results

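The embryonic and adult globin genes of the mouse were followed across 3 genotypes of yolk sac red cell precursors. The 6 genes were Hbb-y and Hbb-bh1 (embryonic beta-like chains), Hba-x (the embryonic alpha-like chain), Hba-a1 and Hba-a2 (the adult alpha chain) and Hbb-b2 (an adult beta chain). They were chosen by name: every probe set, the array's group of oligonucleotides for a transcript, that the platform annotation pairs with 1 of these 6 symbols and no other was a member. That gave 11 probe sets of 22626, the controls left out, and 6 genes of 12393. There were 3 probe sets each for Hbb-y and Hbb-bh1, 2 for Hbb-b2, and 1 each for Hba-x, Hba-a1 and Hba-a2. A further 4 probe sets carry several globin symbols and are given apart: 3 are shared by Hba-a1 and Hba-a2, and 1 by the adult beta genes Hbb-bt, Hbb-bs, Hbb-b1 and Hbb-b2.

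The 14 samples were primitive erythroid precursors cut by laser from frozen yolk sac sections of strain FVB/N embryos at E9.5, with 2 to 4 yolk sacs from 2 litters in each. The groups were 8 wild-type samples, 3 homozygous for a Klf1 null allele (KLF1-/-) and 3 that the labels give as null for both genes (KLF1-/- KLF2-/-). The mothers carried 1 null Klf1 allele or 1 null allele of each gene, and no embryo received a treatment. Both genes encode zinc finger activators of transcription, and the series asks which genes of embryonic red cell formation depend on them. Each sample was hybridised to 1 Affymetrix mouse expression array, and all values below are the deposited log2 expression values.

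A hemoglobin molecule holds alpha-like and beta-like chains, each with a heme group that carries oxygen. The mouse beta-like genes lie in a cluster on chromosome 7 and the alpha-like genes in another on chromosome 11. Primitive red cells of the yolk sac are known for Hbb-y, Hbb-bh1 and Hba-x together with adult alpha globin, whereas adult beta globin is the main beta-like chain of definitive red cells, which form later in the fetal liver. KLF1 is known to bind CACCC motifs and to activate adult beta globin, and KLF1 and KLF2 have both been studied as activators of the embryonic beta-like genes. Adult beta genes go by different names on different mouse haplotypes (Hbb-bs and Hbb-bt, or Hbb-b1 and Hbb-b2). The sources used here do not give the haplotype of these mice.

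The promoters are shown because the globin genes are classical carriers of the CACCC motif. RefSeq sequences on build GRCm38.p6 were held for 6 of 9 globin genes looked up: Hbb-y, Hba-x, Hba-a1, Hba-a2, Hbb-bt and Hbb-bs. The 130 bases before the annotated start of 5 of them follow, on the strand of the gene, with each CACCC in capitals. The first 3 genes are adult beta, adult beta and embryonic beta-like, and the last 2 are embryonic and adult alpha-like.
Hbb-bt, chr7:103813924-103814053, minus strand: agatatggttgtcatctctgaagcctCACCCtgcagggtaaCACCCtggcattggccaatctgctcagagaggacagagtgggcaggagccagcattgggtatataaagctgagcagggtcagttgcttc
Hbb-bs, chr7:103827929-103828058, minus strand: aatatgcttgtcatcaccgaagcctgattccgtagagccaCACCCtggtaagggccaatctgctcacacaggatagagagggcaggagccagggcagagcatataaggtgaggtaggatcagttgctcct
Hbb-y, chr7:103853208-103853337, minus strand: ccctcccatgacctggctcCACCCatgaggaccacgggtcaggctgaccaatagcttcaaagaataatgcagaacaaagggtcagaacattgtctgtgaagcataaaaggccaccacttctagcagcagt
Hba-x, chr11:32276470-32276599, plus strand: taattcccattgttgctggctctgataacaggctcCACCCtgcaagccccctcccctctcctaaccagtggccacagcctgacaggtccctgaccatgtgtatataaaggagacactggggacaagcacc
Hba-a1, chr11:32283542-32283671, plus strand: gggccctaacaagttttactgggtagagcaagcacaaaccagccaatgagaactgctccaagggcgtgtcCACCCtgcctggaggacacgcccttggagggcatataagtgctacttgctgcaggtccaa

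In these windows CACCC stood at −104 to −100 and −89 to −85 of Hbb-bt, −90 to −86 of Hbb-bs, −111 to −107 of Hbb-y, −95 to −91 of Hba-x and −60 to −56 of Hba-a1, where −1 is the base before the start. Over 250 bases and both strands, CACCC was in 6 of 6 of these globin promoters and in 52.0% of 32851 promoters of the same length, and within the last 100 bases in 5 of 6 and 27.2%. The 2 other motifs searched on both strands, CCAAT and GATA, were in 5 and 6 of the 6 globin promoters and in 33.8% and 53.6% of all. On the strand of the gene, Hbb-bt held CCAAT at −75 to −71, Hbb-bs at −76 to −72 and Hbb-y at −83 to −79. Hba-a1 held it at −88 to −84 and Hba-a2 at −91 to −87. On the other strand Hbb-bt also held it at −80 to −76 and −36 to −32. The promoters of Hba-a1 and Hba-a2 shared an unbroken stretch of 247 bases, so the second is not printed. These 2 are therefore not independent in the counts above. The longest stretch that Hbb-bt and Hbb-bs shared was 14 bases. A match to these letters is a description and shows no binding in these cells.

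The arrays had medians of 6.55 to 6.66 and interquartile ranges of 2.31 to 3.12, so their distributions differed. Erythroid identity was checked with 8 of 10 listed markers that had a probe set. Slc4a1, the red cell anion exchanger, was 12.25 ± 0.47 in wild type (SD, n = 8), and the mean of the 8 markers was 9.39 to 10.99 in wild type, 9.64 to 9.85 in KLF1-/- and 9.42 to 10.26 in KLF1-/- KLF2-/-, with full overlap. Markers of other cells were also bright: the mean of 8 of 8 visceral endoderm markers was 10.89 to 12.63 in wild type, 11.60 to 12.29 in KLF1-/- and 11.58 to 11.67 in KLF1-/- KLF2-/-. Klf1 itself was 10.67 ± 0.63 in wild type (n = 8), 9.45 ± 0.39 in KLF1-/- (n = 3) and 9.15 ± 0.53 in KLF1-/- KLF2-/- (n = 3), and Klf2 was 6.25 ± 0.25, 6.22 ± 0.28 and 6.69 ± 0.32. Klf2 was thus not lower where the labels say it is lost. The sources used here do not say whether either probe set lies within the deleted sequence. They check no label, and genotypes are named as labelled.

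Globin signal took up the top of every array. The highest value of each array, 14.25 to 14.71, belonged to a globin probe set on 14 of 14 arrays, while the brightest probe set of any other gene reached 13.96 to 14.52. The Hbb-bh1 probe set 1437990_x_at was the maximum on 8 arrays, the Hbb-y probe sets 1436823_x_at and 1436717_x_at on 3 and 2, and the Hbb-bh1 probe set 1437810_a_at on 1. These 4 probe sets lay less than 0.5 below the maximum of their array, here called near the ceiling, on all 14 arrays. Over the 11 member probe sets, 57 of 154 values were near the ceiling, 56 of them from these 4 and 1 from the third Hbb-bh1 probe set. A suffix x or s in a probe set's name means that its probes may also match other transcripts, and a suffix a that they match several transcripts of 1 gene.

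**Figure D1:**
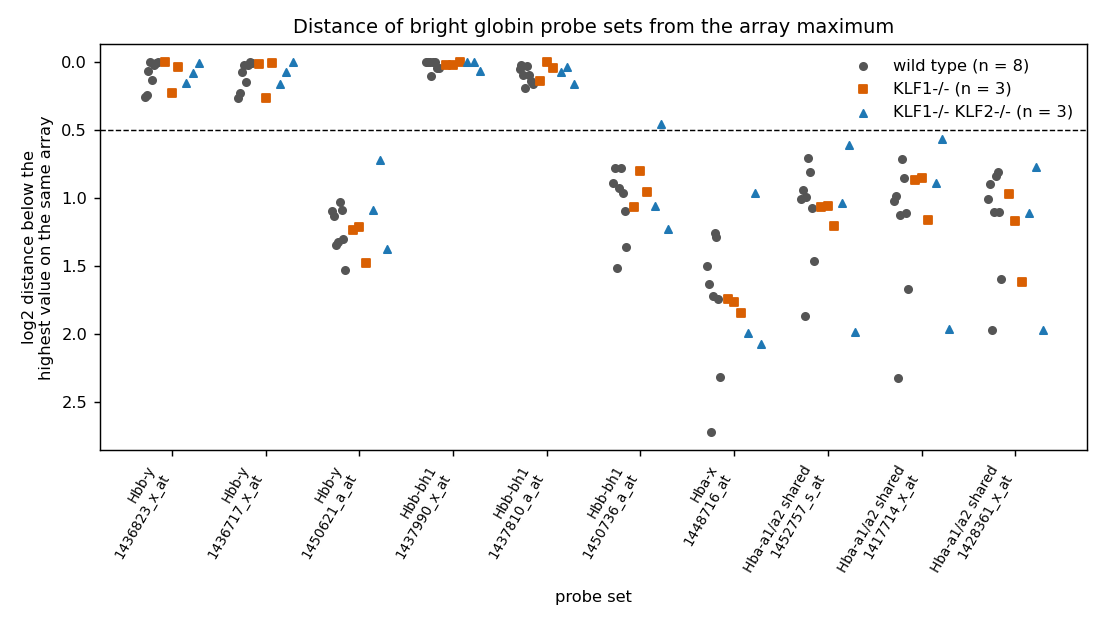
Distance (log2) of the 10 bright globin probe sets below the highest value of the same array, with 1 point for each of 14 arrays and the 0.5 limit as a dashed line. The 2 brighter sets of Hbb-y and the 2 brighter sets of Hbb-bh1 lie within 0.264 of the maximum on every array, whereas Hba-x lies 0.957 to 2.72 below it.

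Hbb-y, the embryonic epsilon-like chain, did not separate the genotypes. On 1436823_x_at the wild-type arrays ran from 14.25 to 14.58 with a median of 14.45, the KLF1-/- arrays were 14.26, 14.46 and 14.41, and the KLF1-/- KLF2-/- arrays 14.48, 14.51 and 14.40. The second probe set, 1436717_x_at, gave 14.23 to 14.58 in wild type, 14.25 to 14.44 in KLF1-/- and 14.40 to 14.52 in KLF1-/- KLF2-/-. All 6 mutant arrays lay within the wild-type range on both. The log2 difference from wild type on 1436823_x_at was −0.043 in KLF1-/- (95% interval −0.24 to 0.16) and 0.041 in KLF1-/- KLF2-/- (−0.16 to 0.24), with adjusted p of 0.9998 and 0.9999 in limma.

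The dimmer Hbb-y probe set, 1450621_a_at, lay 0.720 to 1.53 below the array maximum and was near the ceiling on 0 of 14 arrays. It ran from 12.76 to 13.61 in wild type, was 13.03, 13.47 and 12.98 in KLF1-/-, and 13.55, 13.87 and 13.03 in KLF1-/- KLF2-/-. Of the mutant arrays, KLF1-/- KLF2-/- array 14 alone lay above the wild-type range. The differences were −0.12 (95% interval −0.57 to 0.32) and 0.20 (−0.24 to 0.65), and neither was called. The intervals of this probe set are wider than those of the 2 near the ceiling, whose standard deviation over 14 arrays was 0.0965 and 0.0997 against 0.319 here.

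Hbb-bh1, the other embryonic beta-like chain, showed the same order of size. Its brightest probe set, 1437990_x_at, was 14.15 to 14.71 in wild type (median 14.52), 14.25, 14.67 and 14.45 in KLF1-/-, and 14.63, 14.59 and 14.34 in KLF1-/- KLF2-/-. The probe set 1437810_a_at was 14.06 to 14.66 in wild type, 14.13 to 14.69 in KLF1-/- and 14.25 to 14.56 in KLF1-/- KLF2-/-. Both exceeded every probe set of any other non-globin gene on 14 of 14 arrays, and the genotypes overlapped on both. The differences on 1437990_x_at were −0.031 (95% interval −0.32 to 0.26) in KLF1-/- and 0.033 (−0.26 to 0.33) in KLF1-/- KLF2-/-, neither of them called.

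The third Hbb-bh1 probe set, 1450736_a_at, had more room below the maximum, with a median distance of 0.957 and 1 array of 14 near the ceiling. Wild type ran from 12.93 to 13.87 (median 13.45), KLF1-/- was 13.20, 13.88 and 13.49, and KLF1-/- KLF2-/- was 13.57, 14.13 and 13.18. The array near the ceiling was KLF1-/- KLF2-/- array 14, the brightest of all 14 here. The differences from wild type were 0.051 in KLF1-/- (95% interval −0.45 to 0.55) and 0.15 in KLF1-/- KLF2-/- (−0.35 to 0.66). As fold changes, these intervals reach up to 1.47-fold and 1.58-fold, so a difference of that size is not excluded by these arrays. Whether the 4 brightest probe sets were saturated was not tested.

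**Figure D2:**
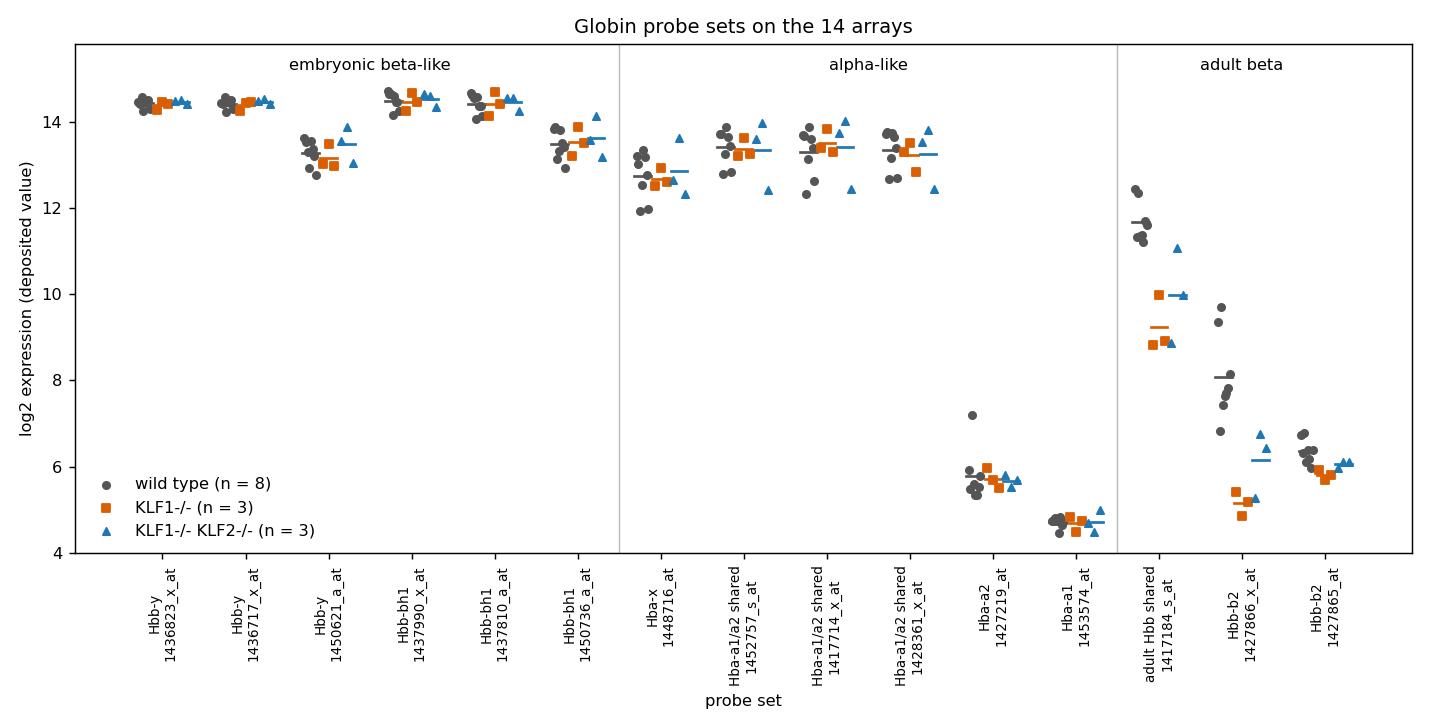
Deposited log2 expression of the 11 member and 4 shared globin probe sets on each of 14 arrays, with the genotype mean as a bar, ordered as embryonic beta-like, alpha-like and adult beta. The genotypes overlap for the embryonic beta-like and alpha-like probe sets, whereas the mutant arrays lie at 8.83 to 11.08 and wild type at 11.20 to 12.43 on the shared adult beta probe set.

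Hba-x, the embryonic zeta-like chain, was measured by 1 probe set, 1448716_at, that was near the ceiling on 0 arrays. Wild type ran from 11.92 to 13.33 with a median of 12.89, the KLF1-/- arrays were 12.52, 12.92 and 12.60, and the KLF1-/- KLF2-/- arrays 12.64, 13.63 and 12.33. The 3 KLF1-/- arrays lay inside the wild-type range, and KLF1-/- KLF2-/- array 14 lay above it. The differences were −0.059 in KLF1-/- (95% interval −0.76 to 0.64) and 0.13 in KLF1-/- KLF2-/- (−0.58 to 0.83), and neither was called.

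Adult alpha globin, made from the paired genes Hba-a1 and Hba-a2, was read by 3 shared probe sets that cannot tell the genes apart. On 1452757_s_at wild type ran from 12.78 to 13.88 (median 13.54), KLF1-/- was 13.20, 13.63 and 13.25, and KLF1-/- KLF2-/- was 13.60, 13.98 and 12.42. The KLF1-/- KLF2-/- arrays held both the highest value, on array 14, and the lowest, on array 15. The difference was −0.046 in KLF1-/- (95% interval −0.69 to 0.60) and −0.072 in KLF1-/- KLF2-/- (−0.72 to 0.58). The 2 other shared probe sets, 1417714_x_at and 1428361_x_at, differed from wild type by 0.22 and −0.13 in KLF1-/- and by 0.12 and −0.089 in KLF1-/- KLF2-/-, so their signs were opposite and 0 of these differences were called by limma (0 at an unadjusted p under 0.05).

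The probe sets that carry a single alpha symbol were dim. Hba-a1 by 1453574_at was 4.472 to 4.999 over the 14 arrays, at a median rank of 88.8% from the top in wild type, and Hba-a2 by 1427219_at was 5.34 to 7.21, at 72.4%. Wild-type array 3 held the highest Hba-a2 value, and the next highest of any array was 5.96. Whether these 2 probe sets lie above background was not assessed, and since probe sets differ in how well they bind, their levels are not set against those of the shared probe sets. Their differences from wild type were −0.025 and 0.015 for Hba-a1 and −0.053 and −0.11 for Hba-a2, with 0 called.

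Adult beta globin was the exception among the globin genes. On the probe set shared by Hbb-bt, Hbb-bs, Hbb-b1 and Hbb-b2, 1417184_s_at, wild type ran from 11.20 to 12.43 with a median of 11.49. The KLF1-/- arrays were 8.83, 9.97 and 8.92, and the KLF1-/- KLF2-/- arrays 8.86, 11.08 and 9.97. All 6 mutant arrays lay below all 8 wild-type arrays, with KLF1-/- KLF2-/- array 14 closest, 0.12 below the lowest wild-type array. The wild-type arrays were themselves spread, with arrays 1 and 3 at 12.43 and 12.35 and the other 6 between 11.20 and 11.70.

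Adult beta globin signal fell in the mutants when their 2 genotypes were averaged. The mean of both mutant genotypes was 9.61 against 11.67 in wild type, a log2 difference of −2.06 (SE 0.322, 95% interval −2.75 to −1.37), or 4.18-fold lower (2.59 to 6.75), with an adjusted p of 0.0309 in limma over all 22626 probe sets. In KLF1-/- alone the difference was −2.43 (SE 0.404, 95% interval −3.30 to −1.57; 5.39-fold, 2.96 to 9.82), with an adjusted p of 0.0993. In KLF1-/- KLF2-/- it was −1.70 (SE 0.404, 95% interval −2.56 to −0.83; 3.24-fold, 1.78 to 5.91), with an adjusted p of 0.583. The direction was thus the same in all 6 mutant arrays, whereas in the fit to all 14 arrays the call was made for the mean of both mutant genotypes and for neither genotype alone. In KLF1-/- alone it passed under several alternatives, among them the fit to only the genotypes compared (adjusted p = 0.0245), quantile normalization (0.028), the filter on dim probe sets (0.0366) and the fits without KLF1-/- KLF2-/- array 13 (0.0269) or 14 (0.0253). The adjusted p of the KLF1-/- difference over the alternatives whose fit converged ran from 0.0245 to 0.941.

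That call rested on most of the arrays. It was lost when any 1 of 11 arrays was left out (wild-type 1, 2, 3, 4, 10, 11 or 12, KLF1-/- 5 or 8, KLF1-/- KLF2-/- 13 or 15), with adjusted p from 0.0532 to 0.116 and differences from −2.13 to −1.79. It was kept without wild-type 9 (adjusted p = 0.041), KLF1-/- 6 (0.0311) or KLF1-/- KLF2-/- 14 (0.00671, difference −2.34), and was lost without wild-type arrays 1 and 3 together (−1.82, 0.0858). The call was kept under quantile normalization (adjusted p = 0.0104), with the dim filter (0.0128), with a variance model with trend and robust (0.0177) and with median centring (0.04). With the Gapdh 3′ excess, an index of RNA quality, as a covariate the difference stayed −2.06 with an adjusted p of 0.053. The sample titles run from 1 to 8, which holds all KLF1-/- arrays and 4 wild-type arrays, and from 9 to 15, which holds all KLF1-/- KLF2-/- arrays and 4 wild-type arrays. With this run as a covariate the difference for the mean of both stayed −2.06 and was called (adjusted p = 0.0362). Within the first run the KLF1-/- difference was −2.63 (adjusted p = 0.27), and within the second the KLF1-/- KLF2-/- difference was −1.50 (adjusted p = 1.0).

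The Hbb-b2 probe set 1427866_x_at behaved in the same direction. Hbb-b2 encodes an adult beta chain, and since its sequence is close to that of the other adult beta genes this probe set may also read them. Wild type ran from 6.83 to 9.71 with a median of 7.76, KLF1-/- was 5.41, 4.87 and 5.18, and KLF1-/- KLF2-/- was 5.26, 6.76 and 6.44. All 6 mutant arrays again lay below all wild-type arrays, and wild-type arrays 1 and 3 were again the highest, at 9.34 and 9.71. In wild type the probe set had a median rank of 29.1% from the top of the array, and in KLF1-/- of 80.9%.

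The Hbb-b2 difference was −2.92 in KLF1-/- (SE 0.517, 95% interval −4.03 to −1.81; 7.58-fold, 3.51 to 16.3), with an adjusted p of 0.133. In KLF1-/- KLF2-/- it was −1.92 (SE 0.517, 95% interval −3.03 to −0.81; 3.79-fold, 1.76 to 8.17), with an adjusted p of 0.788. For the mean of both mutant genotypes it was −2.42 (SE 0.412, 95% interval −3.31 to −1.54; 5.36-fold, 2.90 to 9.89), and the adjusted p of 0.0505 missed the threshold of 0.05. It passed when wild-type array 2, the lowest wild-type array here, was left out (−2.60, adjusted p = 0.0393). It also passed without wild-type arrays 1 and 3 together (−1.94, 0.026), a fit chosen after seeing the data. Without any other single array it did not pass (adjusted p from 0.0505 to 0.195 in limma). Under other alternatives the call went both ways, and those that passed are given at the end. RMA can compress differences between weak signals, and whether the mutant values near 5 lie above background was not assessed. How far this changes the fold was not tested.

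The other Hbb-b2 probe set, 1427865_at, was dim, at 5.97 to 6.78 in wild type, 5.91, 5.70 and 5.81 in KLF1-/- and 5.97, 6.11 and 6.10 in KLF1-/- KLF2-/-. The 3 KLF1-/- arrays lay below all wild-type arrays, KLF1-/- KLF2-/- array 13 lay just below the lowest of them (5.9697 against 5.9698), and the other KLF1-/- KLF2-/- arrays lay in the low part of the wild-type range. Its differences were −0.55 (95% interval −0.89 to −0.21) and −0.30 (−0.64 to 0.040), neither called.

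**Figure D3:**
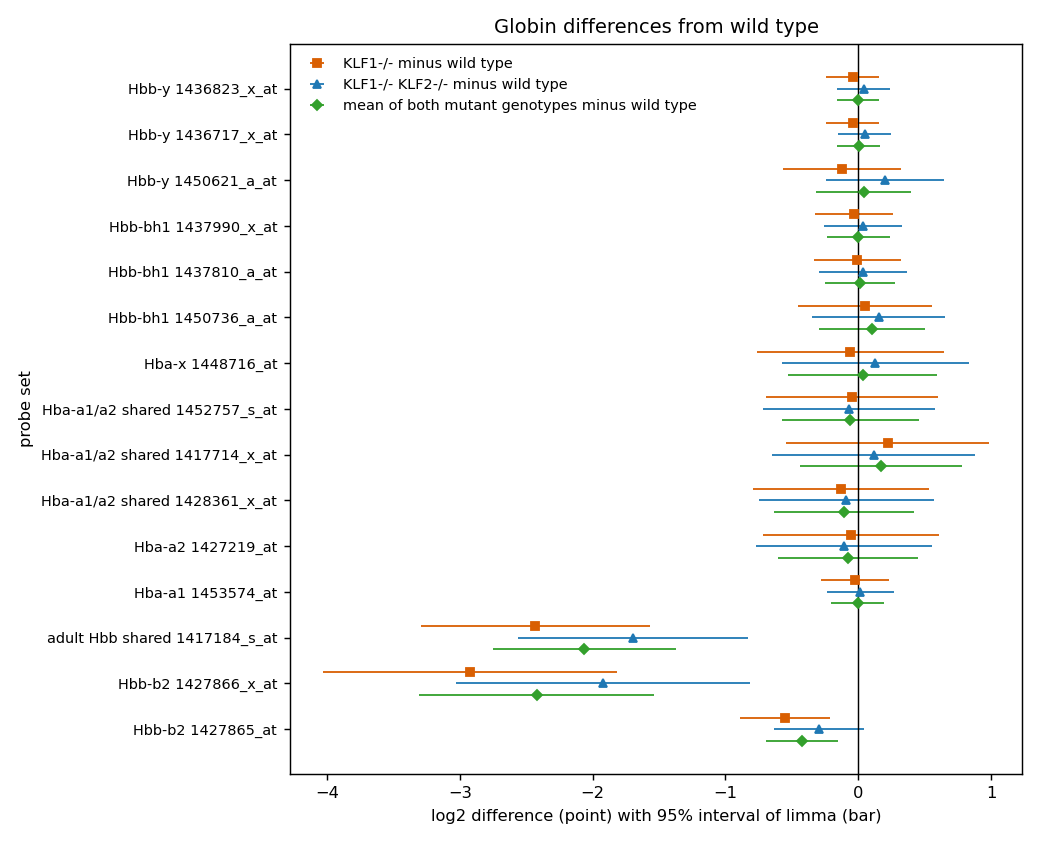
Log2 difference from wild type with its 95% interval (limma) for the 15 globin probe sets, for KLF1-/-, KLF1-/- KLF2-/- and the mean of both. Intervals of the embryonic beta-like and alpha-like probe sets include 0, whereas those of the shared adult beta probe set lie between −3.30 and −0.83.

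Read over all members, calls were few. Of the 11 single-gene probe sets, limma called 0 in KLF1-/- against wild type (2 at an unadjusted p under 0.05), where 0.0265% of all 22626 probe sets were called, and 0 in KLF1-/- KLF2-/- (1 unadjusted), where 0.0221% were. For the mean of both mutant genotypes 0 of 11 were called (2 unadjusted) beside 1 of the 4 shared probe sets, against 0.0707% of all. The share of all probe sets whose mutant arrays lay entirely below wild type was 0.23% for KLF1-/-, 0.305% for KLF1-/- KLF2-/- and 0.106% for all 6 mutant arrays. Among the 11 members the counts were 2, 1 and 1, and among the 4 shared probe sets 1, 1 and 1, and each of these was an adult beta probe set. The median difference of the 11 members was −0.043 in KLF1-/- and 0.037 in KLF1-/- KLF2-/-, against 0.0059 and 0.0050 over all probe sets.

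The mutant genotypes did not separate from each other. KLF1-/- KLF2-/- exceeded KLF1-/- by 0.73 on the shared adult beta probe set (95% interval −0.31 to 1.78) and by 1.00 on Hbb-b2 1427866_x_at (−0.34 to 2.34), both with an adjusted p of 1.0 in limma. The intervals reach 3.43-fold and 5.05-fold higher in KLF1-/- KLF2-/-, so the 2 genotypes are not shown to be alike. The shared adult beta difference was 0.18 without KLF1-/- KLF2-/- array 14, 1.29 without KLF1-/- KLF2-/- array 13 and 1.14 with the title run as a covariate. Of 11 single-gene and 4 shared globin probe sets 0 were called, as were 0.0% of all probe sets, with 142 at an unadjusted p under 0.05. In the order of mean adult beta level, KLF1-/- (9.24) came lowest, then KLF1-/- KLF2-/- (9.97), then wild type (11.67), and the first 2 do not differ beyond their spread. The dim Hbb-b2 probe set 1427865_at was the member whose KLF1-/- KLF2-/- arrays all lay above all KLF1-/- arrays, with a difference of 0.25 (95% interval −0.15 to 0.66). How many of all probe sets separated in this way was not counted, so the separation is not read as a result.

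Set against embryonic Hbb-bh1 on the same array, adult beta signal was lower in each mutant sample. The shared adult beta value minus the value of 1450736_a_at was −2.54 to −0.78 in wild type (median −1.84), −4.37, −3.91 and −4.58 in KLF1-/-, and −4.71, −3.05 and −3.20 in KLF1-/- KLF2-/-. The wild-type and mutant ranges did not overlap, but the adult beta values in them already separated, so this adds no support of its own. Probe sets differ in how well they bind, so the difference describes how the 2 signals moved against each other and not the ratio of the transcripts. In this bulk material fewer cells with adult beta RNA and less of it per cell cannot be told apart.

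**Figure D4:**
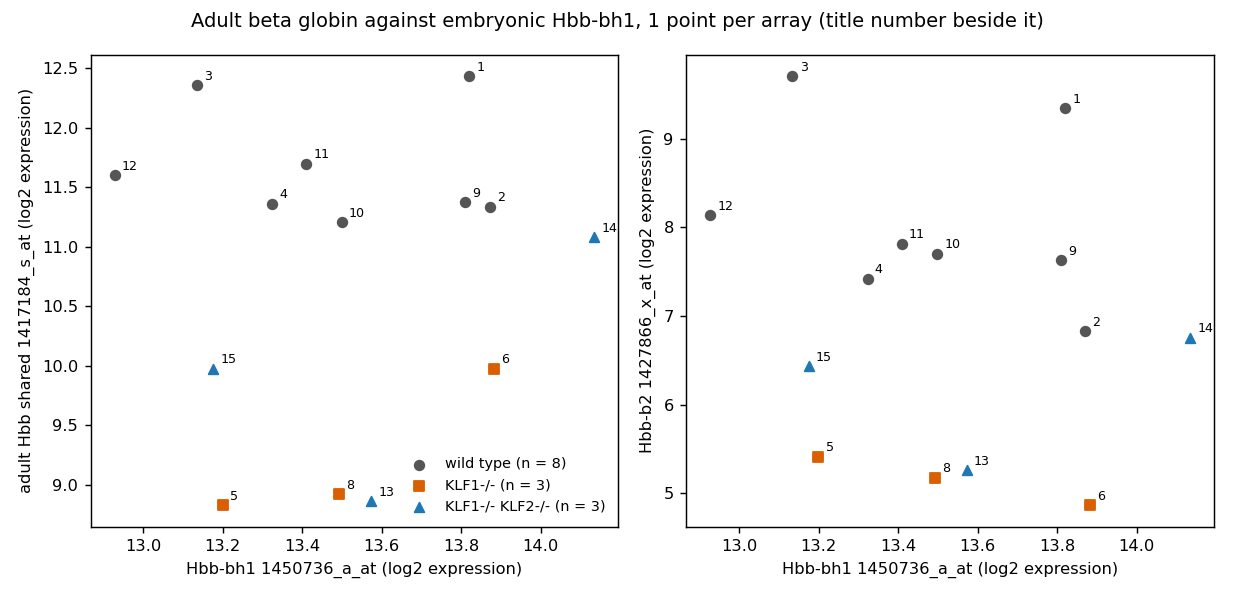
Log2 expression of the shared adult beta probe set (left) and of Hbb-b2 1427866_x_at (right) against that of Hbb-bh1 1450736_a_at, with 1 point per array and its title number. Along a like range of Hbb-bh1 (12.93 to 14.13), the mutant arrays lie below the wild-type arrays on both vertical axes, with KLF1-/- KLF2-/- array 14 nearest to them.

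Markers of other cells were set beside the adult beta difference. The mean of 6 of 8 listed megakaryocyte and platelet markers was 7.15 to 7.64 in wild type. It was 7.56 to 7.81 in KLF1-/- and 7.84 to 8.33 in KLF1-/- KLF2-/-, where all arrays exceeded wild type. Its 6 measured members had differences above 0 in both mutant genotypes with 0 called. Their median difference was 0.27 in KLF1-/- and 0.58 in KLF1-/- KLF2-/-, against 0.0070 and 0.0067 over 12393 genes. How often the mean of other genes separates in this way was not counted. The mean of 8 macrophage markers was 6.65 to 7.19 in wild type, 6.68 to 7.02 in KLF1-/- and 7.18 to 7.39 in KLF1-/- KLF2-/-. The mean of 8 mesenchyme and mesothelium markers was 9.53 to 10.52, 9.67 to 10.56 and 10.14 to 10.53 in the same order. Of these 8 markers, 4 had differences above 0 in KLF1-/- (median 0.012) and 8 in KLF1-/- KLF2-/- (median 0.38), and 8 were above 0 between KLF1-/- KLF2-/- and KLF1-/- (median 0.31), with 0 called. Of the macrophage markers, 1 and 5 were above 0 in KLF1-/- and KLF1-/- KLF2-/-, with 0 called. The mean of 8 endothelial markers was 6.34 to 6.64, 6.39 to 6.86 and 6.40 to 6.58, with 7 and 5 above 0 and 0 called. The embryonic globin and alpha globin values of the same arrays overlapped between genotypes, as given above, with the brightest near the ceiling. What part other cells had in the adult beta difference was not tested.

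Within a genotype, the dimmer Hbb-y and Hbb-bh1 probe sets, Hba-x and the shared alpha probe sets varied together. The dim single-gene Hba-a1 probe set varied against them, and that of Hba-a2 against most of them. After each array was taken as a deviation from its genotype mean, Pearson's r over the 14 arrays between Hba-x and the shared alpha probe set 1452757_s_at was 0.909, and between Hba-x and Hbb-bh1 1450736_a_at 0.907. The dimmer probe sets of Hbb-y and Hbb-bh1 had an r of 0.899. By contrast, r was −0.726 between Hba-a1 and the alpha probe set 1452757_s_at and −0.608 between Hba-a2 and Hba-x. It was −0.083 between Hba-a2 and the dimmer Hbb-y probe set. Wild-type array 3 held the highest Hba-a2 value and the lowest Hba-x value, and r without it was not computed. Between Hbb-b2 1427866_x_at and the alpha probe set 1417714_x_at r was −0.403. The shared adult beta probe set had an r of 0.694 with Hbb-b2 1427866_x_at, 0.330 with Hbb-bh1 1450736_a_at and 0.068 with the alpha probe set 1452757_s_at. The points share their arrays and normalization, so these correlations are descriptions.

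The embryonic and alpha signals also followed the overall spread of the array. Against the interquartile range of all probe sets on the array, Pearson's r over 14 arrays was 0.868 for Hbb-bh1 1450736_a_at, 0.772 for the alpha probe set 1452757_s_at, 0.750 for Hbb-y 1450621_a_at and 0.724 for Hba-x. Spearman's rho was 0.903, 0.833, 0.705 and 0.798, and the adjusted permutation p over the 8 relations computed was 0.00064, 0.00501, 0.00501 and 0.00634 for r (0.0004, 0.00168, 0.0126 and 0.00259 for rho). Without the 2 arrays farthest from the median interquartile range r was 0.895, 0.859, 0.810 and 0.823. Within the first title run r was 0.853, 0.740, 0.667 and 0.634, and within the second 0.955, 0.939, 0.942 and 0.941. The 4 other relations were with the Gapdh 3′ excess and gave r of 0.531 to 0.653, adjusted permutation p of 0.0187 to 0.0513, and r of 0.493 to 0.679 without the 2 farthest arrays. The interquartile range did not separate the genotypes: it was 2.31 to 2.89 in wild type, 2.45 to 3.12 in KLF1-/- and 2.38 to 2.84 in KLF1-/- KLF2-/-. The interquartile range comes from the same log2 values as the globin signal, so the measures are not independent. A wider spread can by itself raise bright probe sets, so the p-values show no trait particular to globin genes. How many other bright probe sets followed the spread this closely was not counted, and adult beta globin was not set against it.

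**Figure D5:**
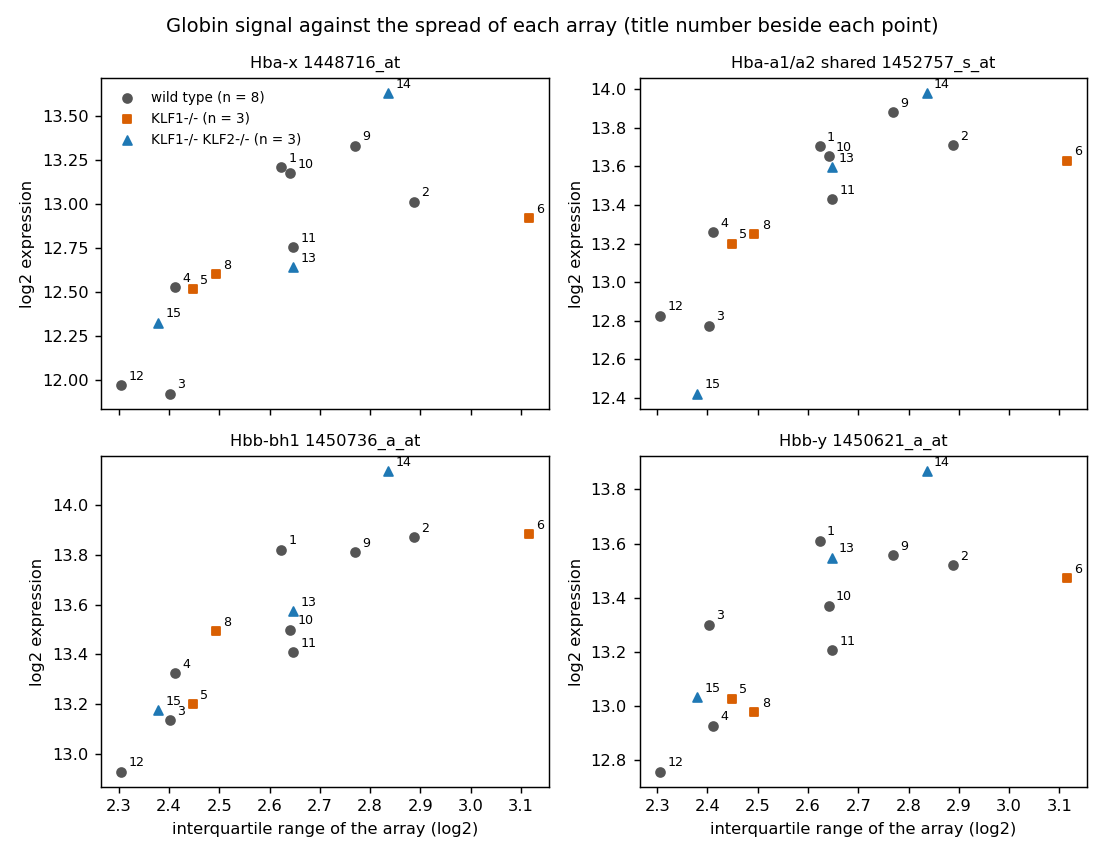
Log2 expression of 4 globin probe sets against the interquartile range (log2) of the same array, with 1 point per array, its title number and its genotype. In the 4 panels arrays 12, 15 and 3 lie at the narrow end, and arrays 14, 2 and 6 at the wide end with higher globin signal, with Pearson's r of 0.724 to 0.868.

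By Pearson's r over the 14 arrays, the non-globin genes whose pattern was most like Hbb-b2 1427866_x_at were Asb17 (r = 0.912), Steap3, an iron reductase of red cell precursors (0.865), Adcy7, an adenylate cyclase (0.861), Cttnbp2nl (0.842) and Kcnn4, a calcium-activated potassium channel (0.818). Adcy7 (0.899), Cd24a, a small surface glycoprotein (0.858), Asb17 (0.845), Elavl2, an RNA-binding protein (0.803) and Mgst3 (0.793) were nearest to the shared adult beta probe set. Asb17 and Adcy7 were thus on both lists. Each list, here and below, was picked as the highest r among the probe sets with 1 gene symbol (20380 with the globins). The highest r that chance gives over 14 arrays was not computed, so no listed gene is read as a partner. With genotype means removed, the 5 nearest to Hbb-b2 were Lims1, Thap7, Wfdc21, Epha7 and Pcf11 (0.926 to 0.893), and those nearest to the shared probe set were Kif11, Numa1, Ets1, Rlf and Lpp (0.915 to 0.810), with 0 genes in common with the first lists.

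Hbb-bh1 1437990_x_at was most like Rps18 (r = 0.969), Sarnp (0.968), Ran (0.964), Psma5 (0.961) and Rps29 (0.961), where Rps18 and Rps29 are ribosomal proteins, Ran a nuclear transport GTPase and Psma5 a proteasome subunit. Hbb-y 1436823_x_at was most like Hnrnpf (0.941), Sf3b2 (0.927), Mtmr6 (0.915), Akirin1 (0.914) and Stk19 (0.903). Hba-x was most like Ncapg (0.926), Gspt1 (0.915), Hnrnpll (0.913), Ccni (0.912) and Ide (0.910). For the dim probe set of Hba-a1 the nearest were 1810021B22Rik (0.910), Rd3 (0.908), Tas2r105 (0.908), Srf (0.896) and Slamf8 (0.892). For that of Hba-a2 they were Aqr (0.941), Usp45 (0.929), Rabep1 (0.921), Magea5 (0.920) and Trim30a (0.917). Hba-a2 was 7.21 on wild-type array 3 and at most 5.96 on the others, so that array may carry these r values. They were not computed without it.

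Of the listed regulators of globin genes, 31 of 32 had a probe set and limma called 0 in either direction in any of the 4 comparisons. Besides Klf1 (differences −1.22 and −1.52 in KLF1-/- and KLF1-/- KLF2-/-, adjusted p 0.9998 and 0.525) and Klf2 (−0.028 and 0.44), the smallest p was that of Bcl11a, a repressor of embryonic globin genes in adult cells. Bcl11a was dim, at 5.04 ± 0.18 in wild type (SD, n = 8), and differed by −0.035 in KLF1-/- and 0.30 in KLF1-/- KLF2-/- (adjusted p 0.9998 and 0.9999). Gata1, the erythroid master regulator, was 10.67 ± 0.51 in wild type and differed by 0.43 and 0.47 (adjusted p 0.9998 and 0.9999), and Nfe2, a subunit of an erythroid activator, was 6.48 ± 0.55 and differed by 0.57 and 0.49 (adjusted p 0.9998 and 0.9999). Gata1 and Nfe2 were chosen for mention among the regulators after their values were seen. The median difference of the 31 genes was 0.015 in KLF1-/- and 0.0027 in KLF1-/- KLF2-/-, against 0.0070 and 0.0067 over 12393 genes.

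Heme synthesis and globin assembly, which supply the partner of each globin chain, had 13 of 17 listed genes measured and 0 called by limma in any comparison. Slc25a37, the mitochondrial iron importer mitoferrin, was 11.57 ± 0.73 in wild type (n = 8), 10.30 ± 0.56 in KLF1-/- (n = 3) and 10.48 ± 0.51 in KLF1-/- KLF2-/- (n = 3), with an adjusted p of 0.9998 and 0.9999. Alad, the second enzyme of heme synthesis, differed by −1.07 and −1.11, and Uros, a later enzyme of the same path, by 0.43 and 0.48. The median of the list was −0.033 and 0.084. The 13 heme genes thus had 5 differences above 0 in KLF1-/- and 7 in KLF1-/- KLF2-/-.

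Among the erythroid markers, Ermap, a red cell surface protein, differed by −2.22 in KLF1-/- and −2.06 in KLF1-/- KLF2-/- (adjusted p 0.347 and 0.412), a size like that of adult beta globin, and Slc4a1 by −0.92 and −0.88 (adjusted p 0.9998 and 0.9999). Of the 8 measured markers, 3 had differences above 0 in each mutant genotype and 0 were called by limma.

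The genes that flank the alpha globin cluster, 8 of 8 measured, had 0 calls in limma in any comparison and median differences of −0.055 in KLF1-/- and −0.075 in KLF1-/- KLF2-/-. Nprl3, whose introns hold the alpha globin enhancers, differed by −0.19 and −0.027, Rhbdf1, a rhomboid-like protein, by 0.25 and 0.36, and Polr3k, an RNA polymerase III subunit, by −0.24 and −0.092. Of 11 other globin family genes 3 were measured by a probe set of their own: Mb, muscle myoglobin, at 6.54 ± 0.20 in wild type (n = 8), Ngb, neuroglobin, at 6.66 ± 0.14 and Cygb, cytoglobin, at 5.998 ± 0.20. Their differences from wild type were −0.055 and 0.022 for Mb, −0.034 and 0.023 for Ngb, and −0.0019 and 0.17 for Cygb, with 0 called by limma in any comparison.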

How the data were processed

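RNA (10 to 20 ng per sample) was amplified in 2 cycles from an oligo(dT) primer, per the labels' protocols, which favours 3′ ends. The authors deposited log2 expression values per probe set, and the tools are given without versions, in the submitters' processing notes, as GCOS, affy, RMA and limma. RMA corrects background, normalizes between arrays and summarises probes on the log2 scale, so a change shared by most genes may not show. The deposited values still differed in spread between arrays, with interquartile ranges of 2.31 to 3.12. Each sample column was used as deposited, with no further normalization.

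There were 22690 probe sets including 64 controls. Without the controls, 20380 had 1 gene symbol in the platform annotation, 691 had several and 1555 had none. Gene IDs of 9 of 9 globin genes were found in the RefSeq table of GRCm38.p6. The log2 values carry no build, and coordinates are those of the RefSeq promoters.

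Genotype means were fitted to 22626 probe sets over 14 arrays in R 4.3.3 by limma 3.58.1 (lmFit, eBayes, two-sided), with Benjamini-Hochberg adjustment over all probe sets. The fit was tested on simulated data. Calls are at an adjusted p under 0.05. Contrasts that share wild-type arrays are not independent. Permutation tests used 100000 permutations. The number of arrays, 8, 3 and 3, limits precision. Whether samples shared a litter is not given, so p-values measure the spread between these samples.

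Named were all globin probe sets, Klf1 and Klf2, called members of the other lists or the 3 with the smallest p, by the brightest probe set per gene, and the 5 genes most like each member. The shared adult beta probe set's likeness list and the correlations among globin probe sets were added after their values were seen. Members and lists were chosen with earlier results of these data known. Alternatives changed the normalization, unit, filter, variance model, array weights, covariates and arrays. Figures were drawn with matplotlib 3.10.9, and tables with pandas 2.3.3 and numpy 2.4.6 in Python 3.11.15.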

Additional observations from a re-analysis of the deposited data

Results flagged for a closer look

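Each of the 15 globin probe sets was examined for a wild-type array that stands apart from the other 7 by Dixon's test, which chance alone meets in about 1 of 20 groups, and 2 did. Wild-type array 3 stood high on the Hba-a2 probe set 1427219_at, at 7.21, with the other wild-type arrays at 5.34 to 5.93, and its gap was 0.686 of the group's range. The same array was low on the shared alpha probe sets (12.32, 12.67 and 12.78). Wild-type array 9 stood low on the Hba-a1 probe set 1453574_at, at 4.47, with a gap of 0.532 of the range against a critical value of 0.526. Both probe sets were dim.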

How the results depend on the processing

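No paired analysis was possible because the sample titles number the arrays without sharing a number between genotypes. The adult beta probe sets kept a difference below 0 from wild type, and above 0 between the mutants, in 279 of 279 recomputations. These leave out the planned array weights described below, under which the shared probe set turned to −0.045 between the mutants. Part of that count was fixed in advance. On the shared probe set and Hbb-b2 1427866_x_at all mutant arrays lay below all wild-type arrays, so leaving arrays out could not change that sign. Leaving out an array of a genotype outside the comparison repeats the same difference. The 12 other globin probe sets, with values near 0, changed sign in 154 of 1128 recomputations, and 0 of those were called. Single-gene globin probe sets called went from 0 to 1 in KLF1-/- with gene-by-gene array weights and without wild-type arrays 1 and 3, and from 0 to 1 in KLF1-/- KLF2-/- with those weights. For the mean of both mutant genotypes they went from 0 to 1 under quantile normalization, 1 probe set per gene, the dim filter, the variance model with trend and robust, those weights, and without wild-type arrays 1 and 3, and were 0 to 1 over the fits that left out 1 array.

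Shared globin probe sets called in KLF1-/- went from 0 to 1 with only the genotypes compared (adjusted p = 0.0245), quantile normalization (0.028), the dim filter (0.0366), trend and robust (0.0496) and gene-by-gene weights (0.045), and were 0 to 1 over the fits that left out 1 array, with 1 without KLF1-/- KLF2-/- 13 (0.0269) or 14 (0.0253). Its adjusted p over all of these ran from 0.0245 to 0.941. In KLF1-/- KLF2-/- they went from 0 to 1 with gene-by-gene weights. For the mean of both they went from 1 to 0 with the Gapdh covariate and without wild-type arrays 1 and 3, and were 0 to 1 over the fits that left out 1 array. The dim filter tests 12529 probe sets and 1 probe set per gene 12393, while the other causes were not tested.

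The planned array weights, by limma's default method, stopped before convergence and called 60.4% of probe sets between the mutant genotypes. They are not counted above, and the gene-by-gene form, like the fit without wild-type arrays 1 and 3, was chosen after seeing the data. With quantile normalization 31 probe sets were called for the mean of both in place of 16, with gene-by-gene weights 102, and in KLF1-/- KLF2-/- 627 in place of 5. The 57 values near the ceiling became 66 at a limit of 1, 53 at 0.25 and 56 after quantile normalization.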
